A study of Mus musculus with 6 samples.

Results

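Expression of 9 genes that mark or build endoderm was examined in mouse induced pluripotent stem cells (iPSCs), which are fibroblasts reprogrammed to a pluripotent state. The genes were Gata4, Gata6, Sox7, Sox17, Foxa1, Foxa2, Hnf4a, Dab2 and Hhex. They were taken by name from the deposited table, where 10 probe sets carried their symbols alone, and the brightest probe set stood for a gene. All 9 were measured, out of 19938 genes named by 21789 such probe sets.

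The 6 arrays held total RNA of bulk cultures, 3 labelled Naive-mPSC and 3 labelled Primed-mPSC. Naive medium contained 15% fetal bovine serum and the cytokine LIF at 1000 U/ml. Primed medium was conditioned by mouse embryonic fibroblasts and held bFGF at 8 ng/ml, with cells on feeders or on matrigel; which of these served these cultures is not given. By their titles the naive lines came from embryonic fibroblasts and the primed lines from dermal fibroblasts of adult mice, so that medium and origin of the line cannot be told apart. Another label gives embryonic fibroblasts for all 6 and so differs from the titles. No genotype or strain is given, and the titles say biological replicate without saying whether lines, clones or dishes were repeated. The p-values therefore set differences against the spread between these cultures, whose level of repetition is not known. They do not cover the spread between lines of each state.

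Endoderm arises in more than one place in the early mouse embryo. Primitive endoderm separates from the epiblast in the blastocyst, under FGF signalling and the transcription factor Gata6, which opposes Nanog. It then forms visceral and parietal endoderm, the linings of the yolk sac. Definitive endoderm leaves the primitive streak at gastrulation and forms the gut, liver and pancreas. Both tissues use Sox17, Gata4, Gata6, Foxa2, Hnf4a and Hhex, so these genes do not tell the tissues apart. Pluripotent cells that have not begun to differentiate are known to hold most of these genes at low levels.

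The labelled cell type was checked first against 9 genes of pluripotent cells. All 9 lay above background in both groups, with Pou5f1 at 12.59 ± 0.05 in naive and 11.53 ± 0.07 in primed cells (SD, n = 3, log2 values as deposited). They were not at like levels in the groups. At a limma adjusted p under 0.05, 7 were lower in primed cells and 0 higher. That is 77.8%, beside 44.5% of all genes tested, with a median difference (primed minus naive) of -0.61. Dppa4 fell furthest, from 9.25 ± 0.07 to 7.52 ± 0.07 (SD, n = 3). Genes known from the naive state alone did not all follow the labels. Dppa3 (-2.81, in background in primed cells), Tfcp2l1 (-0.60) and Klf2 (-0.59) were lower in primed cells, but Esrrb (2.98) and Nr0b1 (2.29) were higher there, and Zfp42 was in background in both groups. Of genes known from the primed state, Otx2 was higher in primed cells (0.92), while Fgf5 was higher in naive cells (-1.71 as primed minus naive). These 8 genes were picked after their values were seen, and naive and primed below are the names on the labels. Across genes, arrays of a group correlated at r of 0.998 to 0.999 and arrays of different groups at 0.980. All differences below are primed minus naive on the deposited log2 scale, with adjusted p from limma over all 19938 genes. The table has no detection calls. The 1190 genes for smell and pheromone receptors (olfactory and vomeronasal), silent in most tissues, therefore served as a yardstick, and a value under their 95th percentile on its own array is called background. This lay between 6.96 and 7.03, and the 99th percentile between 7.72 and 7.91.

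Of the 9 endoderm genes, 1 was lower in primed cells, 0 were higher and 8 did not pass the threshold of an adjusted p of 0.05. Dab2 was the gene that changed. Of all genes tested, 22.7% were lower and 21.8% higher in primed cells, 44.5% in all, so that 49.0% of the called genes were higher, or 35.2% after median centring of the arrays. Among the 14573 genes that were not in background in both groups, 28.8% were lower and 27.8% higher, 56.7% in all. Of the receptor genes, 4.96% passed. The median difference of the 9 genes was -0.01, beside -0.00 over all genes, and the median size of their differences was 0.10 beside 0.14. At an unadjusted p under 0.05, 2 further genes, Gata4 and Hhex, had differences that did not hold after adjustment.

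Most of the 9 genes were near background. Dab2 and Gata4 lay above the 99th percentile of the receptor genes on all 6 arrays. For Gata4 the margin was narrow on naive replicate 2 (7.86 against 7.81) and on naive replicate 3 (7.80 against 7.79). Gata6, Foxa1, Foxa2, Hnf4a and Hhex lay above the 95th percentile on all 6 but not above the 99th on all. Sox7 crossed the 95th percentile on 1 primed array and on 0 naive arrays, and Sox17 was in background in both groups. RMA, the method by which the values were made, compresses differences of dim genes, so the test says little about whether the dim genes differed.

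**Figure D1:**
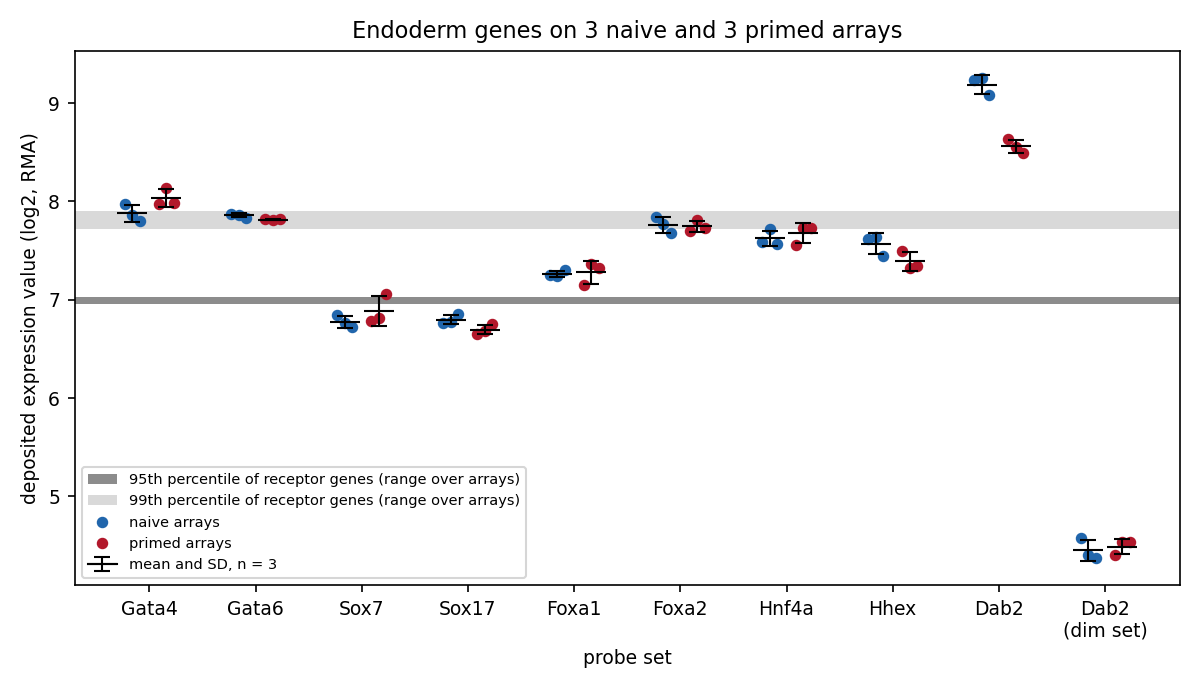
Deposited log2 value of each of the 10 probe sets on the 3 naive (blue) and 3 primed (red) arrays, with mean and SD in black; dark and light grey bands are the ranges over arrays of the 95th and 99th percentiles of receptor genes. The brighter Dab2 probe set stands alone above 8.4 on every array, with its groups apart, while Sox17 sits under the dark band, as does Sox7 on every array but primed replicate 3.

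Dab2 encodes an adaptor protein that carries receptors into clathrin-coated pits. It is a known marker of primitive, visceral and parietal endoderm and is needed for the visceral endoderm to form an ordered layer. Its values were 9.23, 9.25 and 9.08 on the naive arrays and 8.63, 8.55 and 8.50 on the primed arrays. Every naive array was above every primed array. The means were 9.19 ± 0.10 and 8.56 ± 0.07 (SD, n = 3), a difference of -0.63 (SE 0.06, 95% interval -0.77 to -0.49, limma adjusted p = 8.6e-06), or 1.55-fold lower in primed cells. In bulk RNA, fewer cells with Dab2 and less Dab2 RNA per cell cannot be told apart. On each of the 6 arrays Dab2 stayed above the 99th percentile of the receptor genes.

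A second Dab2 probe set, matched by the platform annotation to a cDNA clone in place of the RefSeq transcripts, gave no signal above background. It read 4.58, 4.40 and 4.38 on the naive and 4.40, 4.54 and 4.53 on the primed arrays. These groups overlapped, with a difference of 0.04 (95% interval -0.11 to 0.19, limma adjusted p = 0.70 over all single-symbol probe sets, of which 43.7% passed). At that level the probe set says little about a difference. With the mean of the 2 probe sets in place of the brighter, the Dab2 difference was -0.30 and still passed (adjusted p = 0.0012), although these means lay under the background cutoff on all 6 arrays. Dab2 also passed under every other alternative tried (adjusted p between 8.6e-07 and 8.9e-05).

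RefSeq gives Dab2 more than 1 start on the plus strand of chromosome 15. The 250 bases before the starts are shown for the gene that changed, because they differ in composition (assembly GRCm38.p6). The first, chr15:6299539-6299788, had 36.8% G and C and 2 CpG pairs. The second, chr15:6386498-6386747, had 60.0% and 17 CpG pairs, where the median window of this length held 52.4% G and C. Capitals mark the letters of the GATA motif.

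Dab2 start window 1: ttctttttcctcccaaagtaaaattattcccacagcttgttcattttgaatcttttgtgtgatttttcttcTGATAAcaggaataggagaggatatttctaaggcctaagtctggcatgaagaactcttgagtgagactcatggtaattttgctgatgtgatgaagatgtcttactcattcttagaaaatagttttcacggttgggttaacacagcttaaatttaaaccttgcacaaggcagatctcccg

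Dab2 start window 2: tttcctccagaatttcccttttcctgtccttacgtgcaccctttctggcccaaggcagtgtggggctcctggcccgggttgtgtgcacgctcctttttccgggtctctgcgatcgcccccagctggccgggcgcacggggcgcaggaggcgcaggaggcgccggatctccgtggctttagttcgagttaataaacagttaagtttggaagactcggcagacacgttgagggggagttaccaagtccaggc

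The GATA motif was searched on both strands as AGATAA or as AGATAG, or with a first T as TGATAA or as TGATAG. It occurred once in the first window and in 0 places in the second. By these letters 26.5% of 32851 windows of all genes held a match, as did 3 of 9 windows of the 5 endoderm genes that had any (Foxa1, Foxa2, Hnf4a, Dab2 and Hhex). A SOX motif, ACAAAG, was found in 2 of these 9 windows (16.5% of all windows), those of Foxa1 and Foxa2. A forkhead motif, TGTTTAC, was found in 1, that of Foxa1 (3.2% of all windows). None of these words contains another, and the Dab2 windows held neither of the last 2 motifs. Which start the probe sets read was not analysed here.

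The GATA factors Gata4 and Gata6 are zinc finger proteins that can drive pluripotent cells into primitive endoderm when expressed in excess. Gata4 read 7.97, 7.86 and 7.80 on the naive and 7.97, 8.14 and 7.98 on the primed arrays. The highest naive array met the lowest primed array, so the groups overlapped at a single value. The difference was 0.15 (SE 0.07, 95% interval 0.01 to 0.29, limma adjusted p = 0.085). It passed without naive replicate 1 (0.20, adjusted p = 0.038), with array weights (0.18, adjusted p = 0.034) and after removal of dim genes (adjusted p = 0.048).

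Gata6, the earliest of the primitive endoderm factors, read 7.88, 7.86 and 7.84 on naive and 7.82, 7.81 and 7.82 on primed arrays. Every naive array was above every primed array, which also held for 52.9% of all genes in either direction, and for 3 of the 9 endoderm genes (Dab2, Gata6 and Sox17). The Gata6 difference was small, -0.04 (SE 0.05, 95% interval -0.15 to 0.07, adjusted p = 0.54). Its SD of 0.01 among the primed arrays was the lowest of any endoderm gene.

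Sox7 and Sox17 belong to the SoxF group of HMG-box factors. Sox17 acts in primitive and definitive endoderm, and Sox7 in primitive and parietal endoderm and in vessels. Sox7 read 6.84, 6.76 and 6.72 on naive and 6.78, 6.82 and 7.06 on primed arrays. Primed replicate 3 was the highest and the array above background, and the groups overlapped (difference 0.11, SE 0.07, 95% interval -0.05 to 0.27, adjusted p = 0.27). Without primed replicate 3 the difference was 0.02. Sox17 read 6.77, 6.78 and 6.85 on naive and 6.66, 6.69 and 6.75 on primed arrays, all under their cutoffs. Its groups did not overlap, by a narrow margin, and the difference was -0.10 (SE 0.05, 95% interval -0.22 to 0.02, adjusted p = 0.15).

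Foxa1 and Foxa2 are forkhead factors that open chromatin for endoderm genes; Foxa2 is needed for the node and for foregut endoderm. Foxa1 read 7.25, 7.24 and 7.30 on naive and 7.15, 7.36 and 7.32 on primed arrays, with both the lowest and the highest value on primed arrays. Foxa2 read 7.84, 7.77 and 7.67 on naive and 7.70, 7.81 and 7.73 on primed arrays. In both cases the groups overlapped and the difference was near 0. It was 0.01 for Foxa1 (SE 0.06, 95% interval -0.13 to 0.15, adjusted p = 0.91) and -0.01 for Foxa2 (SE 0.06, 95% interval -0.14 to 0.12, adjusted p = 0.90). The sign of either turned under some alternatives.

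Hnf4a is a nuclear receptor of visceral endoderm, liver and gut. It read 7.59, 7.71 and 7.57 on naive and 7.56, 7.73 and 7.73 on primed arrays. The groups overlapped, with a difference of 0.05 (SE 0.07, 95% interval -0.09 to 0.19, adjusted p = 0.60), which was -0.02 when arrays were centred on their medians. Hhex is a homeobox factor of anterior visceral endoderm and of the liver and thyroid buds. Its values were 7.62, 7.64 and 7.45 on naive and 7.50, 7.32 and 7.35 on primed arrays. Naive replicate 3 lay below primed replicate 1, and the other naive arrays lay above all primed ones.

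After Dab2, Hhex had the largest difference, -0.18 (SE 0.07, 95% interval -0.33 to -0.03, adjusted p = 0.058). It passed without naive replicate 3 (-0.24, adjusted p = 0.018), without primed replicate 1 (-0.23, adjusted p = 0.023), after quantile normalization (-0.20, adjusted p = 0.041) and after median centring (-0.25, adjusted p = 0.011). Over the 8 genes that did not pass, 4 differences were positive and 4 negative, from -0.18 to 0.15. The 95% intervals of all 8 lay between -0.33 and 0.29, that is within 1.26-fold on this compressed scale. For comparison, among the 16886 genes with a standard error in the range of the endoderm genes, the smallest size that passed was 0.13 and the largest that did not was 0.20.

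**Figure D2:**
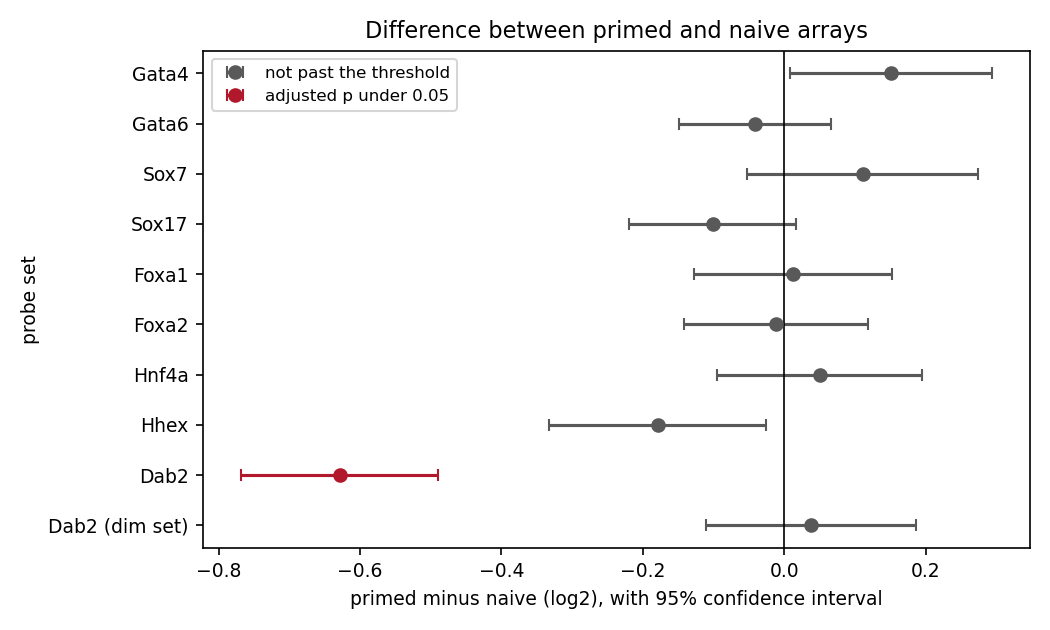
Difference between primed and naive means (log2) for each of the 10 probe sets, with 95% confidence intervals from limma. The brighter Dab2 probe set, at -0.63, lies apart from the others, whose intervals fall between -0.33 and 0.29; those of Gata4 and Hhex miss 0 before adjustment over all genes.

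By group, the order of levels can be read only within a gene. Naive cells were higher than primed cells for Dab2. For the other 8 genes the order of the groups was not resolved, since the adjusted test did not separate them.

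Other genes of primitive endoderm and of the visceral and parietal endoderm it forms went both ways. Of 30 listed, 29 were measured. In primed cells 5 were higher, 8 lower and 16 did not pass, with a median difference of -0.02 and 5 genes in background in both groups. The share that passed, 44.8%, was near that of all genes tested, 44.5%. The signalling gene Bmp2 fell from 7.47 ± 0.05 to 6.52 ± 0.06 (SD, n = 3), which is in background, a difference of -0.95 (adjusted p = 1.3e-07). The keratin gene Krt19 (-0.63) and Cited1, a transcriptional cofactor (-0.48), were also lower. Lrp2, the endocytic receptor megalin of visceral endoderm, rose from 9.83 ± 0.21 to 10.50 ± 0.04 (SD, n = 3), a difference of 0.67 (adjusted p = 6.9e-05). Stra6, a receptor for retinol carried in serum (0.60), and Rbp4, its serum carrier (0.54, in background in naive cells), rose as well.

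The 5 genes of this list that were in background in both groups were Afp, Ttr, Apob, Apom and Cubn, which encode proteins of plasma transport and uptake. Apoe, for a lipoprotein of the plasma and of many cells, was bright and rose from 12.14 ± 0.03 to 12.58 ± 0.08 (SD, n = 3), a difference of 0.44 (adjusted p = 5.4e-05). Apoa1 (-0.00), Trf (-0.12) and Amn (0.06) lay above background and did not pass. Of the genes for proteins of the basement membrane, Col4a1 (-0.39), Col4a2 (-0.42) and Sparc (-0.36) were lower in primed cells. The laminin genes Lama1 (-0.08), Lamb1 (-0.01) and Lamc1 (-0.02) and the nidogen gene Nid1 (-0.13) did not pass.

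In the definitive endoderm and gut tube list, 25 of 26 genes were measured, with 2 higher, 8 lower and 15 not passing, and a median difference of -0.02. The share that passed was under the 44.5% of all genes tested, of which 22.7% were lower and 21.8% higher in primed cells. Eomes, a T-box factor of the primitive streak that is needed for definitive endoderm, fell from 9.90 ± 0.06 to 7.70 ± 0.03 (SD, n = 3), a difference of -2.20 (adjusted p = 1.8e-10). It is also active in trophoblast. The neuropeptide precursor gene Trh (-0.53), the forkhead gene Foxa3 (-0.52) and Cdx2 of hindgut and trophoblast (-0.37) were lower in primed cells. Prox1, a homeobox gene of liver, pancreas and several other tissues, rose from 7.36 ± 0.08 to 8.77 ± 0.25 (SD, n = 3), a difference of 1.41 (adjusted p = 6e-07), and the receptor gene Kit by 0.36. Cxcr4 (0.02) and Gsc (0.05) did not pass, and Cer1, in background in both groups, did not either (-0.04).

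Signals and factors that weigh on the choice between epiblast and primitive endoderm were mostly lower in primed cells. Of 21 listed genes 19 were measured, 1 of them in background in both groups. Of the 19, 63.2% passed, beside 56.7% of genes not in background in both groups and 44.5% of all genes tested. There were 2 higher, 10 lower and 7 not passing, with a median difference of -0.23. The largest falls in this list were among its pluripotency factors, but not all of these fell. Pou5f1 differed by -1.06, Nanog by -0.61, Klf5 by -0.58, Sox2 by -0.52 and Sall4 by -0.44, while Esrrb rose by 2.98. Klf4 fell less (-0.23), and Prdm14, in background in both groups, did not pass (-0.01). On the signalling side the ligand gene Fgf4 rose by 0.17 (adjusted p = 0.019). Fgf4 did not pass after median centring or without naive replicate 2, where Esrrb alone of this list was called higher. The receptor gene Fgfr2, used by primitive endoderm, fell by 0.27 (adjusted p = 0.0013), and the adaptor gene Grb2 by 0.26 (adjusted p = 0.0036). Fgfr1 did not pass (-0.04).

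Among 8 relatives of the 9 genes in the GATA, SoxF, FoxA, HNF4 and Dab families, 4 were lower in primed cells and 0 higher, with 4 not passing and a median difference of -0.10. The share that passed lay between the 44.5% of all genes tested and the 56.7% of genes not in background in both groups. Of all genes tested, 22.7% were lower and 21.8% higher in primed cells. Gata3, a trophoblast factor, fell from 9.11 ± 0.10 to 7.83 ± 0.04 (SD, n = 3), a difference of -1.28 (adjusted p = 2.4e-08), and Gata2 by 0.71 (adjusted p = 3.2e-06). Foxa3, named above, and Dab1, the neural relative of Dab2 (-0.20), were the others. Gata1, Gata5, Sox18 and Hnf4g did not pass.

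The endocytic partners of Dab2 were called in both directions. Of 16 listed genes 15 were measured, with 5 higher, 4 lower and 6 not passing, and a median difference of 0.06. The share that passed, 60.0%, was near the 56.7% of genes not in background in both groups (44.5% of all genes tested). Myo6, the myosin motor that binds Dab2, rose from 8.34 ± 0.13 to 9.57 ± 0.04 (SD, n = 3), a difference of 1.23 (adjusted p = 6.8e-08). The cargo receptor genes Lrp1 (0.68) and Lrp2 rose, as did the scaffold gene Itsn1 (0.35). Ap2m1, for the cargo-binding subunit of the clathrin adaptor AP-2 (-0.37), and the clathrin light chain gene Clta (-0.36) were lower. These genes serve endocytosis in most cells and Lrp2 stands in more than 1 list.

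**Figure D3:**
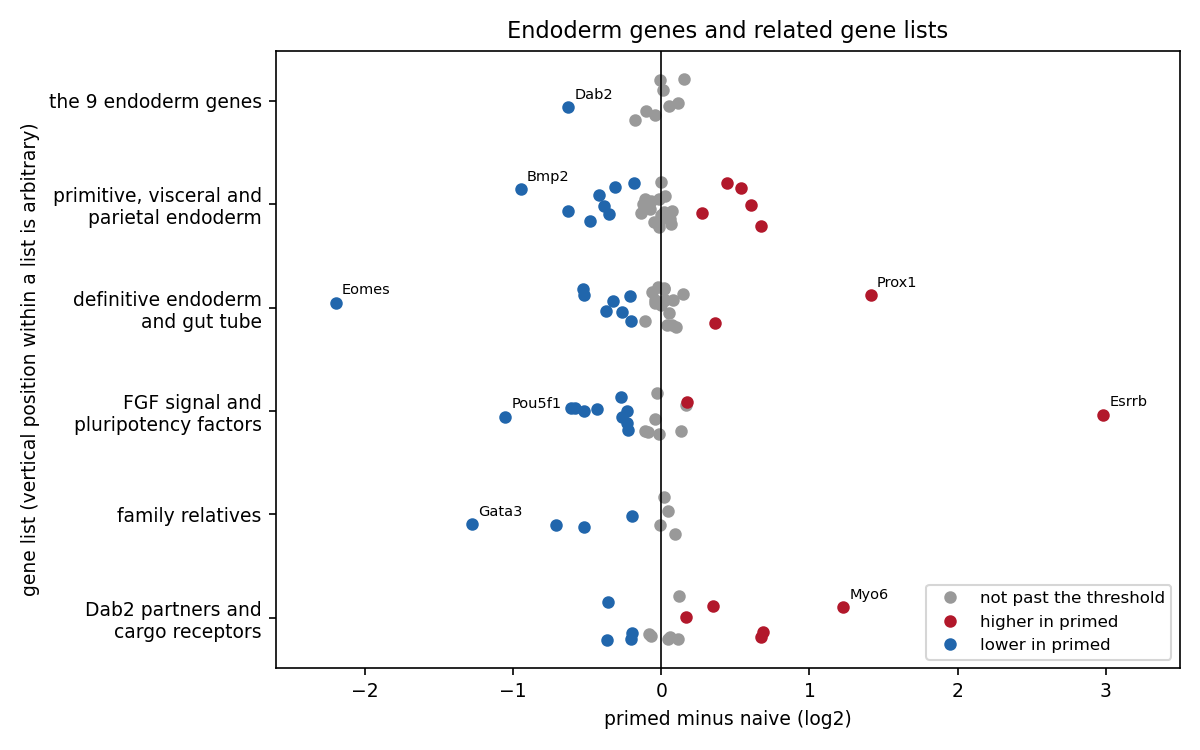
Difference between primed and naive means (log2) of each measured gene in the 9 endoderm genes and 5 related lists; red and blue points passed an adjusted p of 0.05 as higher or lower in primed cells, and grey points did not. The 9 endoderm genes hold 1 coloured point, Dab2, while Eomes (-2.20), Gata3 (-1.28), Prox1 (1.41), Myo6 (1.23) and Esrrb (2.98) lie far from 0 in the other lists.

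Markers of other cell types that can express Dab2 or its relatives were read beside it. All 8 trophoblast genes were lower in primed cells; their mean log2 level lay between 8.69 and 8.77 on naive and between 7.79 and 7.86 on primed arrays, and 0 were in background in both groups. Of 5 macrophage and blood genes, Ptprc, Csf1r, Adgre1 and Lyz2 were in background in both groups. Csf1r passed all the same (-0.16, limma adjusted p = 0.03), while Cd68, a lysosomal gene of macrophages and other cells, was bright (10.79 and 10.66) and did not. Of 4 endothelial genes Tek (-1.42) and Pecam1 (-1.23, in background in primed cells) were lower in primed cells; their mean log2 level ranged from 7.77 to 7.80 over naive and from 7.03 to 7.14 over primed arrays, and 0 were in background in both groups. Of 10 fibroblast genes 5 were lower and 2 higher in primed cells and 3 were in background in both groups, with mean log2 levels of 7.57 to 7.61 over naive and 7.62 to 7.70 over primed arrays. Within this list Dcn, for the matrix protein decorin, rose from 7.25 ± 0.08 to 10.15 ± 0.11 (SD, n = 3), a difference of 2.89 (adjusted p = 1.4e-10), while the collagen gene Col1a1 fell by 0.76 (adjusted p = 1.9e-06). Of 6 mesoderm genes 1 was lower and 1 higher, with 2 in background in both groups. For scale, 22.7% of all genes tested were lower and 21.8% higher in primed cells. The part of these other cell types in the Dab2 difference was not tested.

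Position on the chromosomes, which the choice of genes did not use, was read as the 10 genes on each side that were not in background in both groups. Of all genes not in background in both groups, 28.8% were lower and 27.8% higher in primed cells, with a median difference of -0.00. Dab2 had 19 such neighbours, of which 10 were lower and 4 higher, with a median difference of -0.24. This order skips genes in background in both groups. In it the LIF receptor gene Lifr was 2 genes away and had the largest difference (-1.86). Rictor stood next to Dab2 in that order and differed by -0.28. Both were picked after their values were seen. Gata4 and Sox7 are close on chromosome 14, with 6 tested genes between them and 13 shared neighbours, not counting the pair itself. Of the 20 neighbours of Gata4, 11 were higher and 0 lower (median 0.23), and of those of Sox7, 12 were higher and 0 lower (median 0.35). Over 501 genes of chromosome 14 above background the median was 0.09. Gata4 (0.15) and Sox7 (0.11) thus lay under the medians of their own neighbours.

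The other genes had neighbours of both directions. Those of Gata6 were 8 higher and 10 lower (median -0.11), those of Foxa1 2 and 8 (-0.12), those of Foxa2 6 and 3 (0.07), those of Hnf4a 6 and 4 (-0.00) and those of Hhex 8 and 4 (0.03). Sox17, with 2 neighbours on 1 side, had 12 in all, 1 higher and 3 lower (-0.03).

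**Figure D4:**
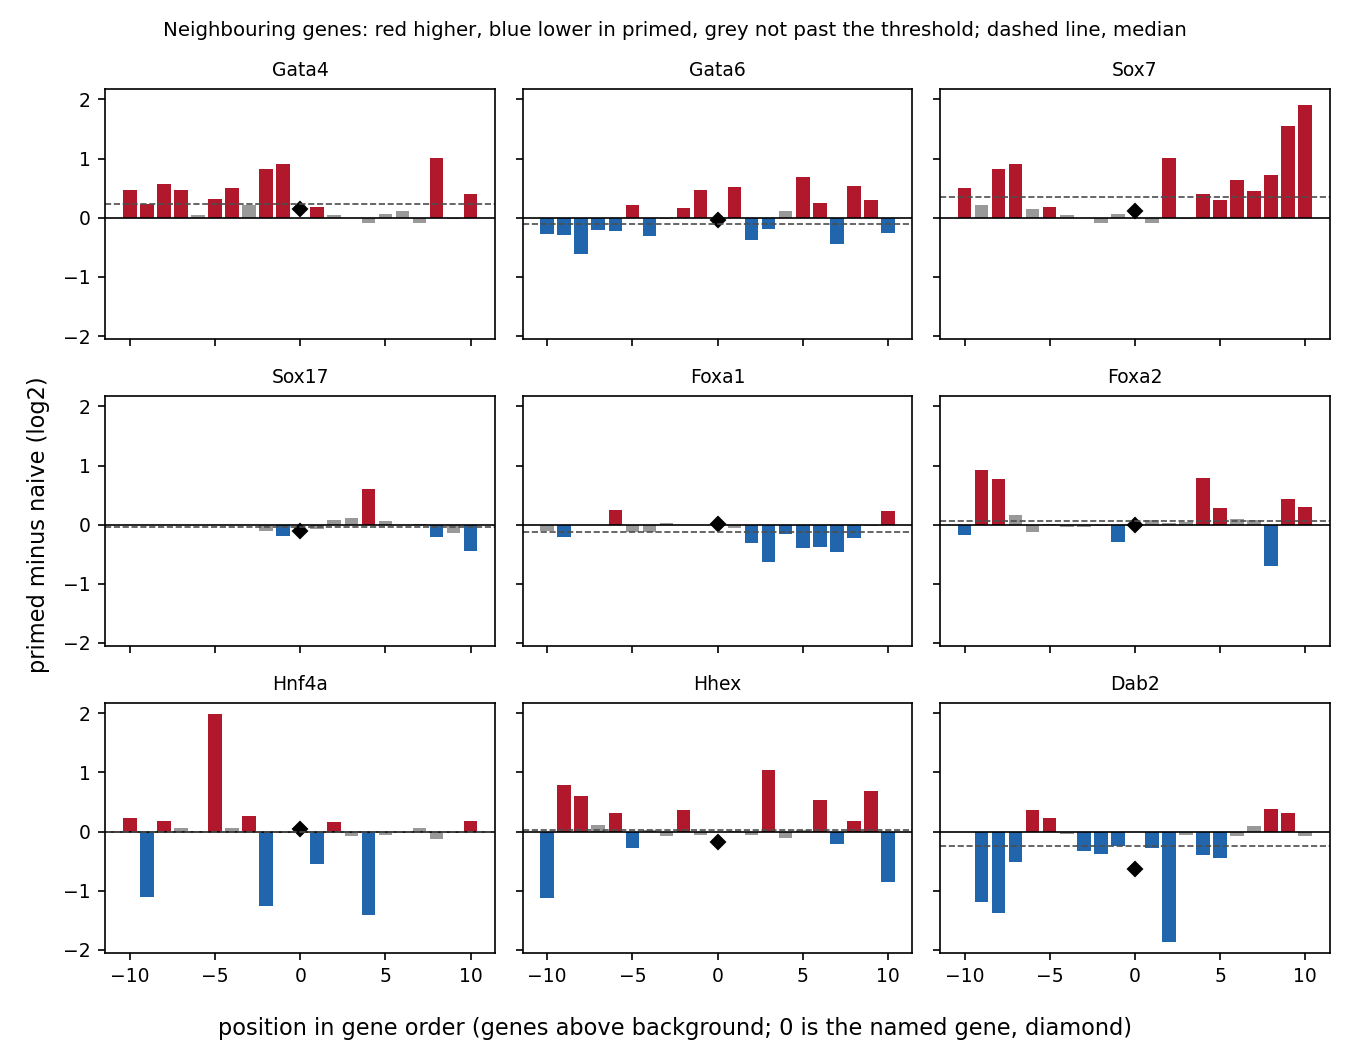
Difference between primed and naive means (log2) of the neighbouring genes of each of the 9 endoderm genes, in gene order; red and blue bars passed the threshold as higher or lower in primed cells, grey bars did not, the diamond is the named gene and the dashed line the median of its neighbours. Around Gata4 and Sox7 the coloured bars are all red, while Dab2 lies below the median of its neighbours (-0.24).

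Over the 6 arrays, the genes whose values followed Dab2 most closely were Ywhab (Pearson r = 0.9995), Ate1 (0.9993) and Nif3l1 (0.9991), and Inpp5b ran most nearly opposite (-0.9985). The differences of the first 3 were -0.119, -0.095 and -0.435, and r takes no account of size. Ywhab did not pass (limma adjusted p = 0.071), and the Ate1 difference was under the smallest that passed over all genes (0.13). These are descriptions over 6 arrays that fall into 2 groups, and 2184 genes had an r above 0.95 with Dab2.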

How the data were processed

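Total RNA of 6 cultures was measured on Affymetrix mouse gene arrays. The authors deposited log2 values per probe set, made with RMA in Partek 6.6 per the submitters' processing notes; the sources used here give neither its options nor a genome build. Of 35556 probe sets, 21789 had 1 symbol in GEO's platform annotation, 1621 had several and were not used, and 12146 are not named here; 21698 matched RefSeq (GRCm38.p6) by gene ID. Where a gene had several, the brightest by its mean over the 6 arrays was used.

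Naive and primed arrays were compared by a limma model (version 3.58.1, under R 4.3.3), fitted with lmFit and eBayes, two-sided, without covariates or further normalization. P-values were adjusted by Benjamini-Hochberg over 19938 genes. The fit was also run on simulated data with few and large planted differences, which does not test calls of differences as small as those of most endoderm genes. A group was in background where all 3 arrays lay under their own 95th percentile of receptor genes. Summaries used Python 3.11.15. The 3 arrays per group limit the precision.

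The 9 genes, the lists and the tests were chosen with earlier results of these data known. The genes named were all 9 endoderm genes, the 6 of each related list with the largest difference among those past the threshold and above background, marker genes as needed for ranges, and the genes most like a changed endoderm gene; further names in a list serve its description and were added once values were known. Some of the listed genes are not reported here. The counts over all genes, the endoderm genes, the counts of the lists and the list and marker genes named by the rule were also computed after quantile normalization, after median centring, on genes above the 40th percentile of mean level, with probe sets averaged, with limma's trend or array weights, with replicate numbers blocked and without each array. The count of endoderm genes in background was repeated at the 90th and 99th percentiles, and the counts over all genes and over the endoderm genes at a threshold of 0.01. State markers outside the lists, neighbours and correlations have no alternative.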

Additional observations from a re-analysis of the deposited data

How the results depend on the processing

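The call of Dab2 as lower in primed cells and its direction held in all 13 alternatives, with -0.68 to -0.60 when an array was left out. Of the endoderm genes the filter on mean level kept Gata4, Gata6, Foxa2 and Dab2 alone, so its counts cover only these. The number of endoderm genes called lower was 2 after quantile normalization and 3 after median centring, 1 to 2 without each array. The number called higher was 1 after the filter, 1 with array weights and 0 to 1 without each array. Hhex was then past the threshold at -0.20 (quantile) and -0.25 (median centring), Sox17 at -0.17 (median centring) and Gata4 at 0.15 (filter) and 0.18 (array weights); left-out arrays gave -0.24 to -0.14 for Hhex and 0.10 to 0.20 for Gata4. Signs turned without a call for Foxa1 (-0.059) and Hnf4a (-0.021) under median centring and for Foxa2 (0.020) with array weights, and left-out arrays gave -0.031 to 0.078 for Foxa1 and -0.054 to 0.027 for Foxa2. Median centring shifts the median of all genes by less than 0.1 (to -0.07 from -0.00), yet turned the 4347 higher and 4529 lower genes into 3439 and 6325, or 35.2% in place of 49.0% higher among those called; for the others the cause was not tested. In background in both groups were 6 of the endoderm genes at the 99th percentile, 0 at the 90th, 2 with the mean over probe sets (Dab2 beside Sox17) and 1 to 2 without each array (2 without primed replicate 3). Of the related lists, definitive endoderm genes called lower numbered 5 after the filter, which tests fewer genes; genes of the FGF and pluripotency list called higher numbered 1 after median centring and 1 to 2 without each array (1 without naive replicate 2); and partners of Dab2 called lower numbered 2 to 4 without each array (2 without primed replicate 2). For the 46 other list and marker genes named by the rule, 590 alternatives were run. Call and direction were kept in 585, the call was lost in 5, all of Csf1r, and 0 reversed. Genes named for description alone, Fgf4 among them, are not in this count.

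The labels number the replicates 1 to 3 in both groups, but same-numbered arrays did not deviate together (r of -0.11, 0.00 and -0.02 over genes), so the numbers are taken as names. With the replicate block 4172 genes were higher and 4344 lower, Dab2 kept its call (-0.63, adjusted p = 3.1e-05), and the number of endoderm genes called stayed at 1.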

Other observations

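Beside Hhex on chromosome 19 lie genes that break down retinoic acid. Cyp26a1, 3 genes from Hhex in the order of genes above background, was higher in primed cells by 1.04 (limma adjusted p = 2.7e-08), while Cyp26c1 between them did not pass (-0.06, adjusted p = 0.45). Cyp26a1 was picked after its values were seen.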
